A study of Mus musculus with 6 samples.

Results

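The genes described here are 10 genes of epithelial cells, namely the claudins Cldn3, Cldn4, Cldn6 and Cldn7, occludin (Ocln), the transcription factors Ovol1 and Grhl2, the splicing regulator Esrp1 and the keratins Krt8 and Krt18. Members were taken as every probe that the platform annotation assigns to one of these symbols, which gave 12 probes of the 45281 on the array, with Grhl2 and Krt8 measured by 2 probes each. Of the 12 probes, 9 passed the detection filter, and they stood for 9 of the 10 genes among the 10628 genes tested. The study hybridised RNA to 6 bead arrays (Illumina Mouse WG-6 v2.0), which report the mean brightness of the beads of a probe as a signal and a detection p-value against negative controls. By the labels, 3 arrays (SSC replicates 1 to 3) carried RNA of cells labelled spermatogonial stem cells from testes of CD1 mice aged 6 days, 3 arrays (FGSC replicates 1 to 3) carried RNA of cells labelled female germline stem cells from ovaries of CD1 mice aged 3 days, and neither group has a treatment or genetic change in its labels. The labels do not say how the cells were enriched, how many animals were pooled or whether replicates were separate isolations, so each p-value here reflects array-to-array spread that could be purely technical. Testis and ovary, male and female, and day 6 and day 3 coincide with the groups, and their parts cannot be told apart. The comparison answers how far expression differs between the 2 cell preparations.

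Epithelial cells are joined by tight junctions, belts of strands near the cell apex that are built from claudins and occludin and that limit what passes between neighbouring cells. Keratin 8 and keratin 18 pair to form the intermediate filaments of simple epithelia, while Grhl2 and Ovol1 switch on or hold the epithelial programme and Esrp1 sets epithelial splice forms of many transcripts. Germ cells are not a classical epithelium, but they lie within one: spermatogonia sit on the wall of the seminiferous cord beside Sertoli cells, and oocytes of the newborn ovary are enclosed by pregranulosa cells.

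The 10 genes did not move as a block (the plot of raw signals shows every probe on every array). Ovol1, Cldn4 and Cldn6 were higher in FGSC, by log2 differences of 4.06 ± 0.12 (SE), 3.80 ± 0.14 and 1.48 ± 0.12. Grhl2 was lower in FGSC, by -0.88 ± 0.09. Krt8 and Ocln stood just past the threshold of the test, with small differences whose call 11 of 17 other settings lost, and Krt18, Esrp1 and Cldn3 were not called. Of the 9 tested genes 5 were called higher in FGSC and 1 lower (limma with Benjamini-Hochberg adjustment over all genes, adjusted p under 0.05). Over all tested genes 30.9% were called higher, 31.5% lower and 62.4% in either direction, so the number of called genes by itself says little about these genes. Of the kept probes 59.0% were called, 29.4% higher and 29.6% lower, and 68.7% had groups that did not overlap. The median difference of the 9 tested genes was 0.24, beside a median of -0.0026 over all genes, and with median scaling the 2 values were -0.018 and -0.12. Cldn3 passed the filter only through its detection in SSC, and Cldn4, Cldn6 and Grhl2 were detected on 2, 1 and 1 of the 3 arrays of their dimmer group, so the filter favoured a difference for these genes.

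**Figure D1:**
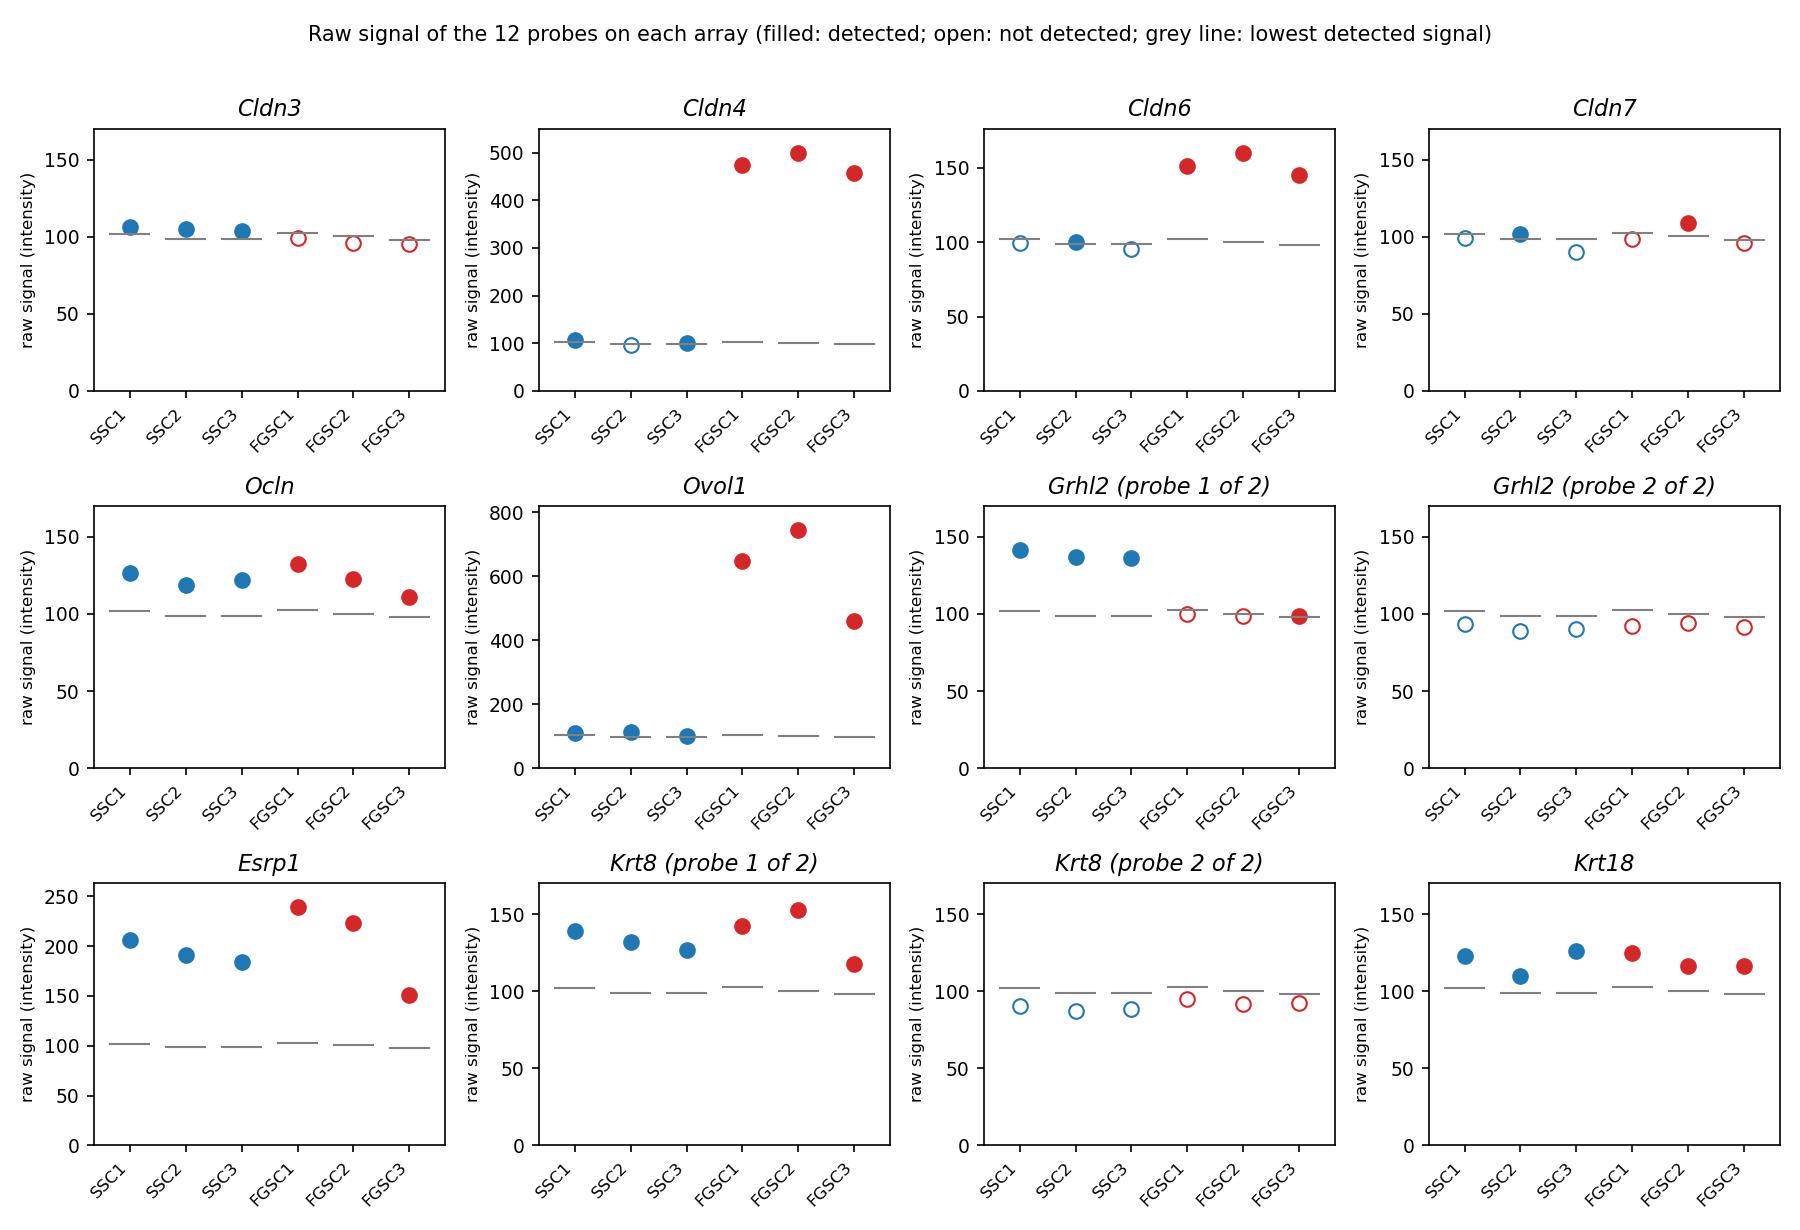
Raw signal (intensity, linear axis from 0) of the 12 probes on the 6 arrays, with SSC in blue and FGSC in red. Filled points were detected (detection p under 0.05), open points were not, and each grey line marks the lowest detected signal of that array. Cldn4, Cldn6 and Ovol1 stand above every SSC value on all FGSC arrays, Grhl2 probe 1 does so on all SSC arrays, and the other probes lie close together or near the detection limit.

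Raw signals are read against the detection limit of each array. The lowest signal with a detection p-value under 0.05 lay between 98.0 (FGSC replicate 3) and 102.5 (FGSC replicate 1), and the median probe at 94.1 to 98.6, so a signal near 100 is background. Levels and differences below are normalized log2 signals, on which the detection limit lay at 4.82 to 4.89. All 6 arrays detected between 16198 (FGSC replicate 3) and 18823 (SSC replicate 3) probes. FGSC replicate 3 was the dimmest array, with a 95th percentile of raw signals of 403 against 464 to 577 on the others. The difference of every named gene rests on 3 arrays against 3, which limits the precision.

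Among the member claudins and Ocln, Cldn4 and Cldn6 differed most. Cldn4, a claudin of many simple epithelia, gave raw signals of 107, 97.2 and 100.3 on SSC replicates 1 to 3 and of 475, 499.6 and 457 on FGSC replicates 1 to 3. The SSC values lay at background, with detection on 2 of the 3 arrays, and the FGSC values were all clear of it. Its level was 4.85 ± 0.05 (SD, n = 3) in SSC and 8.65 ± 0.26 in FGSC, a difference of 3.80 ± 0.14 (limma adjusted p = 2.48e-06).

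Cldn6, a claudin of embryonic and early epithelial tissue, gave 99.8, 100.2 and 95.5 in SSC and 152, 160.2 and 146 in FGSC. It was detected on SSC replicate 2 only among the SSC arrays and on every FGSC array, and the groups did not overlap. Its level was 4.80 ± 0.05 (SD, n = 3) in SSC, under the detection limit, and 6.28 ± 0.22 in FGSC, a fitted difference of 1.48 ± 0.12 (limma adjusted p = 7.36e-05). The dim group of both claudins lay at background, so no exact fold is given, and the size of the differences moved with the treatment of background: with an offset of 50 they were 2.79 for Cldn4 and 0.86 for Cldn6, and with no background correction 2.26 and 0.69, each still called.

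Cldn3, the protein-coding gene next to Cldn4 on chromosome 5, lay at the edge of detection, with a difference of opposite sign that was not called. Its raw signals were 106, 105 and 104 in SSC and 98.9, 95.9 and 95.4 in FGSC. All 3 SSC values were detected and no FGSC value was, and the raw groups did not overlap but lay close together. With the FGSC arrays set to their detection limit, the SSC mean stood 1.04-fold above them, a value without an error of its own. The fitted difference of -0.14 ± 0.07 was not called (limma adjusted p = 0.115). Its 95% interval of -0.31 to 0.024 includes no difference. It was called with no detection filter, with array weights and with the authors' processed values (adjusted p = 0.0281, 0.0243 and 0.0356). Across all other settings the adjusted p lay at or above 0.0761.

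The upstream sequences of Cldn4 and Cldn3 are shown because these neighbours differed so unequally, Cldn4 strongly and Cldn3 without a call, and that of Cldn6 because it rose with Cldn4. All are the 250 bases before the transcription start, written 5′ to 3′ on the gene's strand, from RefSeq on GRCm38.p6, whose promoter table matched 7 of the 10 genes. Capitals mark CACCTG on either strand, the E-box form bound by the repressors Zeb1, Zeb2 and Snai2. Cldn4 lies at chr5:134946935-134947184 on the minus strand, Cldn3 at chr5:134985964-134986213 on the plus strand and Cldn6 at chr17:23679115-23679364 on the plus strand.
Cldn4: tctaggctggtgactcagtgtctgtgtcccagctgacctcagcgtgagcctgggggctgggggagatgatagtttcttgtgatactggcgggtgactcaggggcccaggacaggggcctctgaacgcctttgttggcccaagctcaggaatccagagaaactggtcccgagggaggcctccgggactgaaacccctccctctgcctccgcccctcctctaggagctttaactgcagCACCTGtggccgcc
Cldn3: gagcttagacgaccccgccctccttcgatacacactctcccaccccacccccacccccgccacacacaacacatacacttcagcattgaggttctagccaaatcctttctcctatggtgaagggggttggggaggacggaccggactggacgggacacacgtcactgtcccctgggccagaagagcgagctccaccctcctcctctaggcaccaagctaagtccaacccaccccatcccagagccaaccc
Cldn6: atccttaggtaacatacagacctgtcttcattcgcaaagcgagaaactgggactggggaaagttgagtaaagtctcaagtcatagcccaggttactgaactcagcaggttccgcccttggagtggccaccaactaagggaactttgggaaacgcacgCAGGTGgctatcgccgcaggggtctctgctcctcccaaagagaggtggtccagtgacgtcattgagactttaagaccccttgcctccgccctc
Cldn4 held 1 CACCTG, which starts 14 bases before the transcription start, Cldn6 held 1, which starts 93 bases before it, and Cldn3 held 0. CACCTG was held by 6 of the 7 genes with a promoter, in at least 1 of their promoters. These were Cldn4, Cldn6, Ocln, Krt8, the uncalled Krt18 and the untested Cldn7. No promoter was available for Ovol1, Grhl2 and Esrp1, and whether the motif bears on the differences was not tested. Of 32851 mouse promoters of the same length 17.2% held the motif, a share per promoter, whereas the 7 genes had 9 promoters. The Grainyhead motif AACCNGTT, searched on both strands as well, was found in none of these 9, so no overlap with CACCTG arose. It occurred in 1.8% of all promoters. A match is a description of letters and not a binding site.

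Cldn7, a claudin found along the sides of epithelial cells, was not tested, since it was detected on 1 array of each group. Its raw signals were 99.0, 102 and 90.3 in SSC and 98.7, 109 and 96.2 in FGSC, all near the detection limit. The detected arrays were SSC replicate 2 and FGSC replicate 2, and the groups overlapped. With no detection filter its difference was 0.13 ± 0.11 (95% interval -0.14 to 0.40, limma adjusted p = 0.479), an interval that does not exclude a difference of 0.40.

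Ocln, a 4-pass membrane protein of the tight junction, was detected on all 6 arrays at a low signal. Its raw signals were 127, 119 and 122 in SSC and 133, 123 and 111 in FGSC, so the raw groups overlapped. After normalization the level was 5.33 ± 0.05 (SD, n = 3) in SSC and 5.55 ± 0.09 in FGSC, and the groups no longer overlapped. The difference of 0.22 ± 0.08 was called only narrowly (limma adjusted p = 0.0493), was called in 6 of 17 other settings, and was -0.066 with median scaling.

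Among the member regulators Ovol1, Grhl2 and Esrp1, the strongest difference was that of Ovol1. Ovol1, a zinc finger factor that restrains mesenchymal genes in epithelia and acts in male germ cells of the mouse as well, gave raw signals of 110.1, 112 and 99.3 in SSC and of 647, 744 and 459.8 in FGSC. It was detected on every array, close to background in SSC and far above it in FGSC. The level rose from 4.97 ± 0.15 (SD, n = 3) to 9.03 ± 0.16, a difference of 4.06 ± 0.12 (limma adjusted p = 1.25e-06). FGSC replicate 3 was lowest on the raw scale at 459.8, but after normalization its level of 8.95 lay beside 8.93 and 9.22 on FGSC replicates 1 and 2. The difference was 3.09 with an offset of 50 and 2.51 with no background correction, and stayed called in all 16 settings that kept the gene.

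Grhl2, a Grainyhead factor that activates Cldn4, Cdh1 and other junction genes in epithelia, was lower in FGSC, and Cldn4 was higher. Cdh1, named after its value was seen, gave -0.18 ± 0.16 on an irregular probe (defined below). It was not called (limma adjusted p = 0.352). Whether Grhl2 bears on Cldn4 or Cdh1 was not tested. The kept Grhl2 probe gave 141, 137 and 136 in SSC and 99.9, 98.7 and 98.6 in FGSC. All SSC values were detected and tightly grouped, and of the FGSC arrays only replicate 3 was called detected, at a signal of background size. The level was 5.73 ± 0.10 (SD, n = 3) in SSC and 4.85 ± 0.06 in FGSC, a difference of -0.88 ± 0.09 (limma adjusted p = 0.000151), called in all 16 settings that kept the gene and -0.41 to -1.07 in size. The FGSC level is that of the detection limit, so the direction was measured but the size depends on that floor. The second Grhl2 probe was detected on no array, with raw signals of 89.2 to 93.5 in SSC and 91.4 to 94.3 in FGSC. The fall therefore rests on 1 of the 2 probes, and the other gave no reading in either group.

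Esrp1, an RNA-binding protein that enforces epithelial exon choice in transcripts such as that of Fgfr2, was detected on all 6 arrays. Its raw signals were 206, 191 and 184 in SSC and 239, 224 and 150.5 in FGSC. FGSC replicates 1 and 2 lay above all SSC values and FGSC replicate 3 below them. The level was 6.75 ± 0.06 (SD, n = 3) in SSC and 6.95 ± 0.32 in FGSC, and the difference of 0.20 ± 0.16 was not called (95% interval -0.19 to 0.59, limma adjusted p = 0.322). Without FGSC replicate 3 it was 0.37 and called (adjusted p = 0.00818). The Esrp1 signals of SSC replicates 2 and 3 carry 5 decimals in the deposited file, a form that 0.743% to 1.55% of the signals of at least 100 take on an array, and their detection p-values were 0. The effect of this on the Esrp1 value was not tested, since the gene has no other probe.

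The keratin pair differed little between the groups. Krt8, the type II partner, gave 139, 132 and 127 in SSC and 142, 153 and 118 in FGSC on its kept probe, with detection on all 6 arrays. The raw groups overlapped, with FGSC replicate 3 lowest and FGSC replicate 2 highest. The level was 5.58 ± 0.08 (SD, n = 3) in SSC and 5.93 ± 0.21 in FGSC, a difference of 0.35 ± 0.12 that was called narrowly (limma adjusted p = 0.0420) and in 6 of 17 other settings, and that shrank to 0.039 with median scaling. The other Krt8 probe was detected on no array, at 87.4 to 90.1 in SSC and 91.6 to 95.2 in FGSC.

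Krt18, the type I partner and neighbour of Krt8 on chromosome 15, gave 123, 109.6 and 126 in SSC and 125, 116 and 116 in FGSC. It was detected on all 6 arrays and the groups overlapped. The difference was 0.24 ± 0.15 (95% interval -0.11 to 0.60, limma adjusted p = 0.187) and was called in none of 17 other settings, where its adjusted p lay between 0.0719 and 0.733. The interval does not exclude a difference of 0.60, and the p-value does not show that Krt18 was equal.

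**Figure D2:**
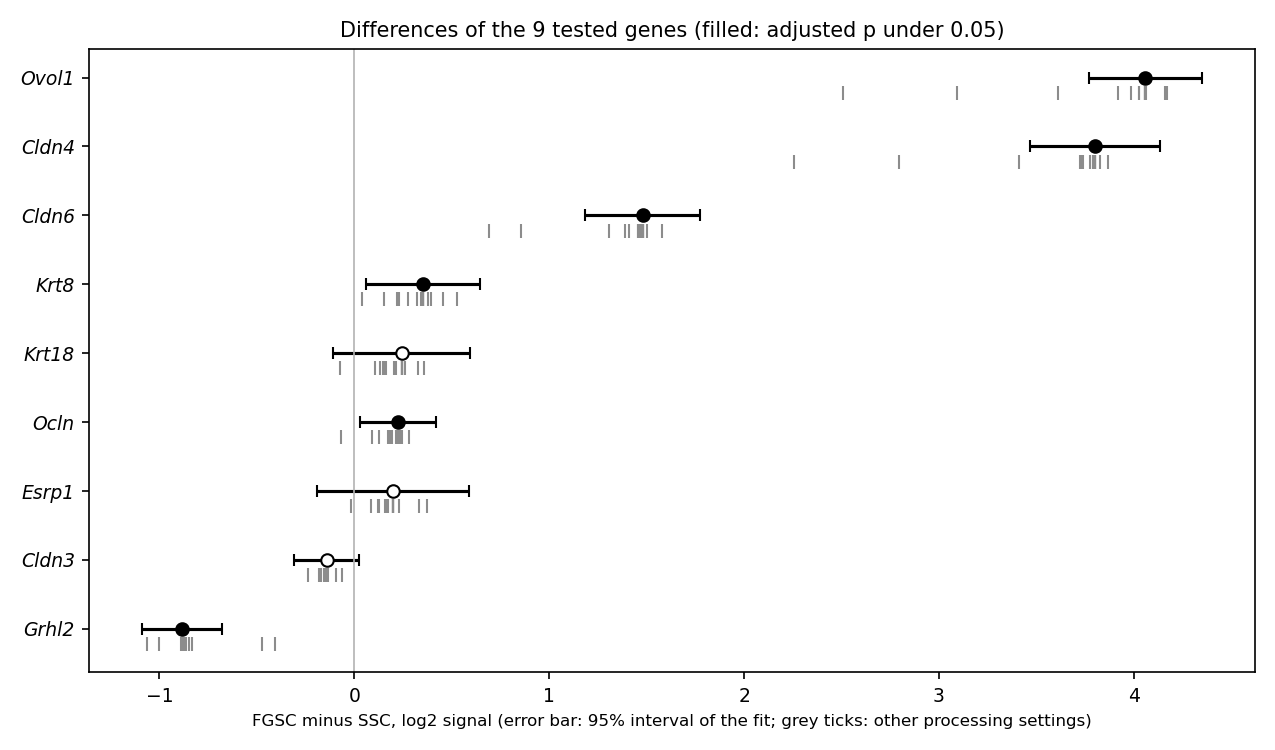
Difference of the 9 tested genes, FGSC minus SSC, on the log2 axis, as points with the 95% interval of the limma fit (filled where the adjusted p was under 0.05). Grey ticks under each point are the values under other processing settings. Ovol1 (4.06), Cldn4 (3.80) and Cldn6 (1.48) lie to the right of 0 and Grhl2 (-0.88) to the left under each setting that kept them, while the ticks of Krt18, Ocln and Esrp1 reach 0.

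FGSC replicate 3 split the genes on the normalized scale. Set against the mean of FGSC replicates 1 and 2, its value was lower for Esrp1 (-0.55), Krt8 (-0.25), Ovol1 (-0.12) and Ocln (-0.11), and higher for Cldn4 (0.44), Cldn6 (0.32), Krt18 (0.31) and Grhl2 (0.11). For Cldn4 and Cldn6 this is the reverse of their raw order, in which FGSC replicate 3 was the lowest FGSC array. Without that array 7 of the 9 genes were called, 6 of them higher, beside 65.5% of all genes tested in that setting, and with all arrays the groups did not overlap for 7 of 9 genes, beside 71.0% of all genes.

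Expression profiles closest to those of the members were sought among all tested genes, as the smallest root mean square distance over the 6 arrays after each gene was centred on its mean. Closest to Ovol1 were Tle6 and Lurap1l, at distances of 0.12 and 0.15 log2 units. Cldn4 lay nearest to Osgin1 and Khdc1c (0.05 each), and Cldn6 to Irx2 (0.03) and Mrpl9 (0.06). For Grhl2 the nearest were Ercc6l2 and Nnat (0.04 each). Krt8 had Bcl2l1 and Grhl3 nearest (0.03 each), Krt18 had Supt4a (0.06) and Lin7b (0.07), and Esrp1 had Stard4 (0.04) and Ndufa3 (0.06). Ocln lay nearest to Kif13a and Mrap (0.03 each) and Cldn3 to Slc16a4 and Ajuba (0.02 each). With 6 arrays in 2 groups such a distance mostly measures a difference of the same size between the groups.

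Other claudins and tight junction genes also went both ways. Among the called claudins 1 higher and 3 lower genes were undetected on every array of their dim group, and among the tight junction genes 1 and 1. Of 18 other claudin and claudin domain genes with a probe, 9 were tested, 4 higher and 4 lower in FGSC, with a median of -0.46. Cldn12 (-1.38 ± 0.23) and the endothelial claudin Cldn5 (at least 1.73-fold lower) fell, as did Cldn23 (at least 1.60-fold lower), and Cldnd1 rose by 0.88 ± 0.19. Cldn11, the claudin of the Sertoli cell barrier, gave -1.24 ± 0.45 and was not called (limma adjusted p = 0.0509), and its probe is one whose signal and detection p-value disagree. Cldn9, picked after its value was seen as the neighbour of Cldn6 on chromosome 17, rose by 0.45 ± 0.15 (limma adjusted p = 0.0319), a call that 7 of 17 other settings lost. Of 21 other tight junction and polarity genes with a probe, 14 were tested, 4 higher and 6 lower. Cgnl1 counted as lower (-0.94), but its other kept probe gave 0.79 and was called higher. Patj counted as higher (1.13), with 0.19 and -0.31 on its other kept probes, neither of them called. Cgnl1 and Patj were named after their values were seen. The polarity genes Pard3 and Pard6a rose by 2.16 ± 0.08 and 1.71 ± 0.12, Pard3 from background in SSC, whereas the tricellular junction gene Lsr differed by -1.98 ± 0.14 and F11r, which encodes a junctional adhesion molecule, by -1.83 ± 0.13.

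Keratins outside the pair were mostly not measurable. Of 20 other keratins with a probe 7 were tested, 4 higher and 2 lower, and 13 failed the filter. Krt17, a keratin of basal and stressed epithelia, rose by 0.76 ± 0.09, Krt19, a keratin of simple epithelia, by 0.65 ± 0.17 and the epidermal keratin Krt10 by 0.44 ± 0.11, and Krt23 differed by -1.05 ± 0.13. With median scaling Krt17 and Krt10 were not called, and without SSC replicate 1 Krt19 was not. Krt19 in SSC (4.75, detected on 1 array) and Krt23 in FGSC (4.84, detected on 2 arrays) lay at background. The sizes of their differences depend on that floor. Keratin partners and other filament genes counted 5 higher and 3 lower of 9 tested, with the mesenchymal filament gene Vim at 2.13 ± 0.10, Nes at 1.43 ± 0.15, Synm at -2.83 ± 0.10 and the linker gene Plec at -1.10 ± 0.09.

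Adherens junction and desmosome genes leaned lower in FGSC, with 8 of 12 tested genes called lower, beside 31.5% of all genes, and 1 higher, and a median of -0.86. Of the 8, Dsg2 and Evpl were detected on no FGSC array and so passed the filter only through SSC. The desmosome gene Pkp2 counted as lower (-1.05) on its brightest probe, but its other kept probes gave 1.54 and 0.61, and it turned to higher in 3 of 17 settings, and Dsg2 (-0.43) gave 0.21 on its other kept probe and turned in 3 of 16. The 1 higher gene, Pkp4 (1.38), gave -0.96 on one of its other probes. Dsg2, Evpl, Pkp2 and Pkp4 were named after their values were seen. Nectin2 (-2.49 ± 0.11), Ctnnb1 (-1.97 ± 0.64), Cdh3 (-1.47 ± 0.09) and Ctnnd1 (-1.44 ± 0.15), which encode a nectin, beta-catenin, P-cadherin and p120-catenin, fell. The call of Ctnnb1 was lost in 7 of 17 other settings, and its other kept probes gave -1.10, -1.07 and 0.03. The call of Cdh3 was lost in 3, and its other kept probes gave -0.63 and -0.73. Its FGSC level was 4.79, with detection on 1 of 3 arrays, so the size of its difference depends on the floor. Nectin2 gave -2.53 and -0.36 on its other kept probes. Of the other desmosome and adhesion probes, that of Epcam, the epithelial adhesion molecule, was detected on no array, and 9 of the 21 genes with a probe were not tested.

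Epithelial regulators other than Ovol1, Grhl2 and Esrp1 counted 6 higher and 1 lower of 12 tested, with a median of 0.31. The 1 lower gene was Grhl1, a Grainyhead relative of Grhl2 (-0.39 ± 0.09, and 0.06 on its other kept probe). Of the higher calls, those of Esrp2 and Spint1 were lost in 7 of 16 and 6 of 17 other settings. Spint1 gave -0.24 on its other kept probe. Grhl1, Esrp2 and Spint1 were named after their values were seen. Trp63, a p53 relative of basal epithelia that also guards resting oocytes, rose by 5.41 ± 0.07. Its SSC level of 4.90 lay close to the detection limit. Rab25, a small GTPase of epithelial recycling endosomes, rose by 4.70 ± 0.18 and by 3.10 on its other probe. Elf3, an epithelial Ets factor, was at least 8.18-fold higher in FGSC on its brightest probe, with 0.71 and 0.51 on its other kept probes, and Ap1m2, the epithelial adaptor subunit, rose by 1.37 ± 0.22. The Grhl2 relative Grhl3 gave 0.31 ± 0.12 on its brighter probe and was not called (limma adjusted p = 0.0533), while its other kept probe gave 0.37 and was called. Mesenchymal genes and factors of epithelial-mesenchymal transition counted 8 lower and 1 higher of 14 tested, with a median of -0.77. Among them Zeb2, a repressor of junction genes, differed by -2.20 ± 0.10 (-0.31 on its other kept probe). The stromal factor Tcf21 differed by -3.30 ± 0.11 and Pdgfra by -2.67 ± 0.30, and Vim was the gene that rose. Tcf21 was detected on 1 of 3 FGSC arrays, at a mean level of 4.80. The size of its difference therefore depends on the floor (-3.41 to -1.85 over the other settings). With median scaling, which moved the median of all genes to -0.12, the called genes split into 1929 higher and 3002 lower in place of 3289 and 3343.

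**Figure D3:**
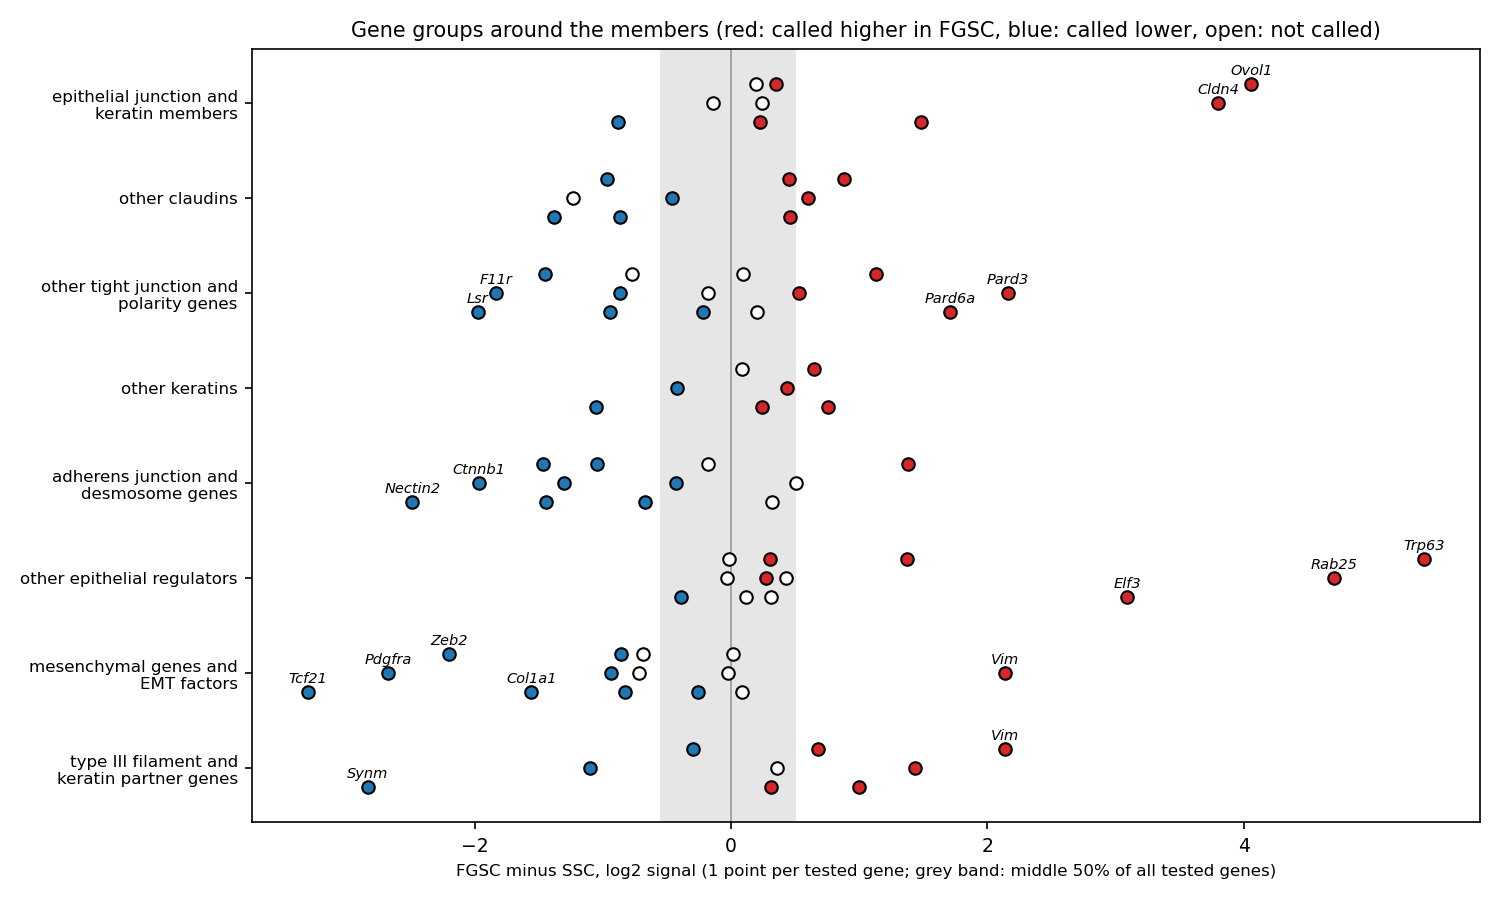
Differences (FGSC minus SSC, log2 axis) of the tested genes in the members' own group and in 7 related groups, 1 point per gene, with red for called higher in FGSC, blue for called lower and open for not called. The grey band holds the central part of all tested genes, between the quartiles. Ovol1 and Cldn4 stand far to the right of the other junction genes, beside Rab25, Elf3 and Trp63 in the group of epithelial regulators.

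Markers of the cells that such preparations can hold moved with the same comparison. On every FGSC array the summed signal of 11 tested oocyte markers lay between 33119 and 34214, against 330 to 343 in SSC. All 11 were called higher, beside 30.9% of all genes. Each sum includes the background level of every gene, detected or not, so a low sum can be largely background. The SSC oocyte sum and much of the FGSC Sertoli cell sum are of this kind. Background also draws the sums of the groups together. Spermatogonial markers summed to 3070 to 3703 in SSC and 758 to 836 in FGSC. Of 11 tested, 10 were called lower, beside 31.5% of all genes. The gene not called, Id4 (-0.51), gave 0.82 on its other kept probe, which was called higher. The probe of Gfra1 was detected on no array. The 2 brightest of them in FGSC, Id4 (7.93) and Bcl6b (7.72, detected on 2 FGSC arrays), have irregular probes (defined below). So do 3 of the 9 Sertoli cell markers and 1 each of the tested oocyte and granulosa markers, which limits these sums. Surface epithelium and mesothelium markers, which include the keratins Krt7 and Krt19, counted 4 higher and 2 lower of 6 tested. They summed to 581 to 798 in FGSC and 1010 to 1311 in SSC. The 2 lower genes, Lgals7 (8.99) and Aldh1a1 (8.51), were the brightest of the list in SSC, and Bnc1 (8.61) was the brightest in FGSC. The sum therefore rests on few genes and goes against the count. Pregranulosa and granulosa markers counted 3 higher and 4 lower of 10 (544 to 632 in FGSC, 588 to 637 in SSC), and Sertoli cell markers 2 higher and 6 lower of 9 (324 to 438 in FGSC, 978 to 1038 in SSC). Endothelial markers counted 0 higher and 6 lower of 10, and of the rete and duct epithelium markers 2 were tested, 1 of them higher. Many of the lower calls came from genes detected on no FGSC array, which passed the filter only through SSC: all 6 of the Sertoli cell markers, 4 of the 6 endothelial, 4 of the 10 spermatogonial and 2 of the 4 granulosa markers. Of the 11 higher oocyte markers 3 were detected on no SSC array. The Sertoli marker Sox9, counted as higher at 0.53, gave -1.80 on its other kept probe. The part of these cell types in the differences of Ovol1, Cldn4, Cldn6 and Grhl2 was not tested, and fewer cells of a type and less RNA per cell cannot be told apart in bulk RNA.

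**Figure D4:**
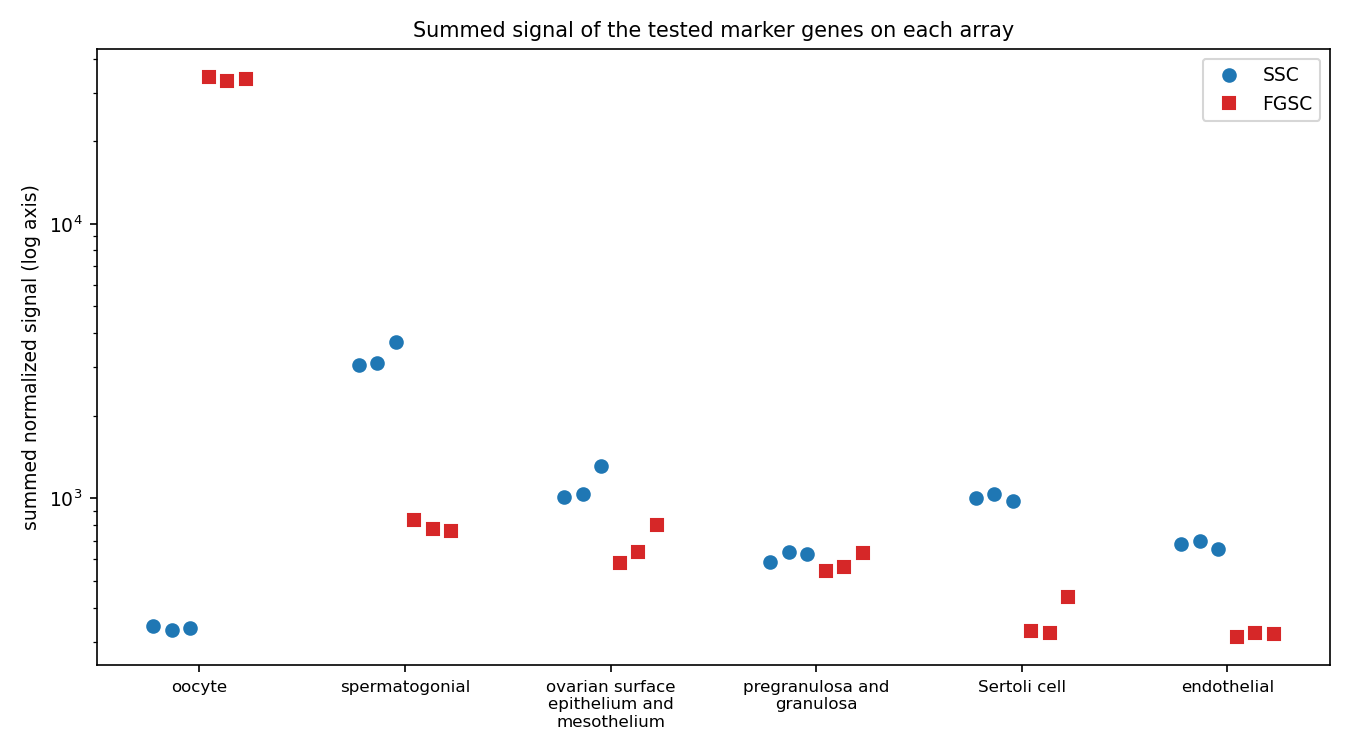
Summed normalized signal of the tested marker genes of 6 cell types on each array (log axis), with SSC as blue circles and FGSC as red squares. Oocyte markers separate the groups most, at 330 to 343 in SSC and 33119 to 34214 in FGSC, and the pregranulosa and granulosa sums overlap. Every sum includes the background level of its genes.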

How the data were processed

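The authors deposited a table of signal intensity, not normalized between arrays, with a detection p-value per probe, per the file headers. They also deposited processed intensity values of the same arrays, whose columns share 1 distribution (median 19.9, lowest 1.01), and which were used as an alternative, as log2(value + 16), with scale and centring unstated. The tool lumi is named in the submitters' processing notes, with its role and version unstated. Other upstream steps are not given in the sources used here.

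The deposited signals went through neqc (limma 3.58.1, R 4.3.3), that is normal-exponential background correction using the detection p-values, an offset of 16, quantile normalization and log2. Probes with detection p under 0.05 on at least 3 of 6 arrays were kept (18860), and the kept probe with the highest mean stood for a gene. Of all probes 34885 had 1 symbol, 18 several and 10378 none here. Symbols were updated through RefSeq (34807 by gene ID, 11 by transcript, 67 keeping the older name). Groups were compared with lmFit and eBayes over all 10628 genes, with Benjamini-Hochberg adjustment, after a check on simulated data. Values after ± are SE for differences and SD for levels.

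The members, 14 further gene lists and the rule for named genes (all members, then per list up to 4 called genes and up to 2 not called with the largest differences) were chosen with earlier results of these data known. Of the uncalled genes picked outside the marker lists, only Cldn11 and Grhl3 are described above. The others were Ildr1 (0.21), Llgl2 (-0.77), Krt12 (0.09), Nectin3 (0.51) and Afdn (0.32). Tfcp2l1 (0.42), Col1a2 (-0.69), Col3a1 (-0.72) and Lmna (0.36) were picked as well. Nectin3, Afdn, Col3a1 and Lmna had other kept probes that were called. In the marker lists only counts and sums are given, with genes named there for absence, for an opposite probe or for their weight in a sum. A probe was treated as irregular where its detection p differed by more than 0.01 from the running median of the 50 probes nearest in signal (smaller gaps than 0.05 were passed over where both exceeded 0.05), or where a signal had 9 or more digits (191 probes, none of them of the 10 genes).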

Additional observations from a re-analysis of the deposited data

How the results depend on the processing

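Ovol1, Cldn4, Cldn6 and Grhl2 kept direction and call in all 16 settings that kept them, with differences of 2.51 to 4.17, 2.26 to 3.87, 0.69 to 1.58 and -1.07 to -0.41. Detection p under 0.01 on all 6 arrays removed these 4 genes and Cldn3, and left 4 members. Of the 4, 0 were called by limma, beside 63.7% of the 6896 genes tested in that setting, and 1 had an unadjusted p under 0.05. The stricter filter also left 4396 called genes and 6826 called probes, in place of 6632 and 11126. Of the other lists it left 43 called genes in place of 102, with fewer tested. Of the called genes 39.1% were higher with median scaling and 49.6% in the main setting.

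Krt8 was not called with no background correction (0.15), median scaling (0.039), an offset of 50 (0.22), no detection filter (0.35), the stricter filter (0.35) or the authors' processed values (0.28). Ocln was not called with no background correction (0.092), an offset of 50 (0.13), the stricter filter (0.22), the authors' processed values (0.18) or the replicate block (0.22), and turned to -0.066 with median scaling. Krt18 turned to -0.073 and Esrp1 to -0.018 with median scaling, and Esrp1 was called with array weights (0.33). Cldn3 was called with no detection filter (-0.14), array weights (-0.16) and the authors' processed values (-0.24). The cause was not tested for these changes.

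Leaving out each replicate gave 5121 to 6682 called genes, or 52.7% to 65.5% of those tested, and 8264 to 10954 called probes. Members called were 4 to 7 of the 8 or 9 tested. Of the other lists 66 to 100 genes were called, with fewer genes tested. Without an SSC replicate 66 or 67 of those list genes were called. Over these settings Krt8 ranged from 0.23 to 0.46, Ocln from 0.17 to 0.28 and Esrp1 from 0.085 to 0.37. With FGSC replicate 3 left out Krt8 (adjusted p = 0.0143) and Ocln (0.0295) kept their call, and they lost it without any other single replicate.

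The replicate numbers are shared by the groups but did not pair the arrays: deviations of same-numbered arrays correlated at -0.20, -0.05 and -0.22, and no array correlated best with its own number. With the replicate block 5928 genes (55.8% of those tested) and 5 of 9 members were called. Among members Ocln alone changed its call (limma adjusted p = 0.125). Leaving out probes with 5 or more decimals, an alternative chosen after seeing the data, removed Esrp1. It kept 6 of 8 members called, beside 62.4% of all genes tested in that setting. Signals close to background limit Cldn3, Cldn7 and the dim groups of Cldn4, Cldn6, Ovol1 and Grhl2.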
